A study of Mus musculus with 12 samples.

Results

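The 37 genes described here, of 43698 rows in the deposited count table, make up the NRF2 antioxidant response, glutathione metabolism, iron handling and the defence against ferroptosis. They were chosen by name, as known members of these pathways, though with earlier results of these data known. All 37 passed the filter on low counts. They were measured by RNA-seq in 12 libraries of MC38 tumours, which arise from a colon carcinoma line of the mouse and here grew subcutaneously in the left flank of C57BL/6J mice aged 8 weeks at inoculation. No genotype other than this strain is labelled, and all groups, including the controls, carried the tumour. The labels give 6 groups of 2 libraries. DOX (doxorubicin) and DPD, read here as the doxorubicin prodrug of the series title, were each given at 14 µg (0.56 mg/kg). RP was taken to be Ru-PD-L1, a conjugate of a catalyst with an antibody to the checkpoint ligand PD-L1, and was given at 20 µg (0.8 mg/kg). Of the combinations, R+X was taken to hold the conjugate and 14 µg DOX, since of the agents' names DOX alone has an X, and R+D the conjugate and 14 µg DPD. The Ctrl mice received PBS. Single agents and PBS went into the abdominal cavity every 3 days from day 9, whereas in both combinations the drug was injected beside the tumour 6 h after the conjugate, so that combination and route cannot be told apart. Tumours were taken on day 20. Whether both libraries of a group are from different mice is not stated, so p-values reflect the spread of these libraries only, and that spread may be technical.

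NRF2, encoded by Nfe2l2, is a transcription factor that KEAP1 marks for degradation until oxidants or electrophiles modify KEAP1. It then binds antioxidant response elements and raises genes for quinone reduction, glutathione synthesis, thioredoxin recycling and NADPH supply. Ferroptosis is cell death by iron-driven lipid peroxidation, which the glutathione peroxidase GPX4 and the quinone reductase encoded by Aifm2 oppose and the lipid-activating enzyme ACSL4 promotes. Iron regulatory proteins bind stem-loops in the messenger RNAs of ferritin and ferroportin, where they block translation, and of the transferrin receptor, where they protect the message from decay.

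Those stem-loops were present in the reference transcripts of the iron genes whose levels are compared below, and they are shown for that reason. In group means, both ferritin messages were lower than Ctrl in each treated group, while those of the transferrin receptor and ferroportin were higher. In DOX the libraries of all these genes overlapped with Ctrl. Whether the stem-loops had a part in the levels was not tested. The search used an unpaired C, 5 bases, the loop CAGTGN and 5 bases that pair with those before the loop, on the transcript strand only, in GENCODE M21 transcripts (GRCm38). It matched 5 of the 37 genes (13.5%), against 294 of 21877 genes with a protein coding transcript (1.34%). The site of Fth1 (ferritin heavy chain) lies in its 5′ UTR at chr19:9982733-9982759 on the plus strand, and that of Ftl1 (ferritin light chain) in its 5′ UTR at chr7:45459780-45459806 on the minus strand. The site of Slc40a1 (the iron exporter ferroportin) lies in its 5′ UTR at chr1:45925466-45925492 on the minus strand. Tfrc (the transferrin receptor) held 4 sites in its 3′ UTR, on the plus strand of chromosome 16, starting at 32631220, 32631599, 32631664 and 32631711. The match in Keap1 lay in its coding sequence and is a match of letters only. Capitals mark the CAGTGN loop.
Fth1: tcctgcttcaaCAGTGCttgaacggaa
Ftl1: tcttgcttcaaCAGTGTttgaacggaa
Slc40a1: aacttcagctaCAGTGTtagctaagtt
Tfrc site 1: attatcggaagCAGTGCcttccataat
Tfrc site 2: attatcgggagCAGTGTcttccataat
Tfrc site 3: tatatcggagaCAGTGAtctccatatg
Tfrc site 4: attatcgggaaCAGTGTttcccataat

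Antioxidant response elements were searched by their core TGACNNNGC on both strands of the 250 bases before each RefSeq gene start (GRCm38.p6). A core stood in 7 of the 31 genes with a promoter entry (22.6%), against 3112 of 27025 genes (11.5%). The 7 were Nfe2l2, Gclm, Prdx1, Mgst1, Txnrd1, Sod1 and G6pdx. Slc40a1, Hmox1, Gclc, Prdx6, Gsr and Gsta4 had no entry. The windows of Gclm, Prdx1 and Txnrd1 are shown because these known NRF2 targets are described below. They lie on the plus strand at chr3:122245398-122245456, chr4:116685441-116685499 and chr10:82859089-82859147, and capitals mark the core, which reads in the reverse direction in each. A match of letters is not a bound site.
Gclm: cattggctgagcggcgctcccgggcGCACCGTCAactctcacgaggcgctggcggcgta
Prdx1: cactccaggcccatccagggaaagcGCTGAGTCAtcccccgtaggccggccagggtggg
Txnrd1: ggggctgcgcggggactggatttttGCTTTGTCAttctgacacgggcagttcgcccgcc

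Levels are CPM, counts scaled by TMM to a common library size, and library totals were 46547114 to 56462259 counts. The members took 0.678% to 1.05% of all counts, and the ferritin pair alone 0.282% to 0.509%. Per kilobase of exon, Ftl1 was the most abundant member with a mean of 1738 CPM per kb, ahead of Fth1 with 404, Txn1 (thioredoxin) with 378 and Gpx1 with 260. Gsta4 (0.317 CPM per kb) and Slc40a1 (0.117 CPM per kb) were the lowest. Libraries of a group could lie far apart: the median ratio of the higher to the lower library over 36 members was 1.38 in DOX, where 13 members differed by more than 1.5 times, and 1.08 to 1.22 in the other groups. Gsta4, with a library at 0, was left out of these ratios. The library Ctrl replicate 2 held the highest level of 14 of the 37 members and DOX replicate 1 of 9.

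The labelled cell type and other tissue were read from marker genes. Of 9 markers of colon epithelium, Cdx2 was at 0 counts in all 12 libraries and Epcam reached at most 1.302 CPM. Krt8, Krt18, Krt19, Krt20 and Vil1 reached at most 0.309, 0.134, 1.03, 0.487 and 0.386 CPM. Cdh1 stood at 9.90 to 18.1 CPM and Lgals4 at 7.35 to 12.8 CPM, so most of the 9 were nearly absent. All 12 skeletal muscle markers were detected, and their sum was 16.6 and 10.99 CPM in DOX, 18.1 and 18.8 CPM in DPD, 262 and 100.2 CPM in RP, 23.3 and 12.2 CPM in R+X and 27.9 and 348 CPM in R+D, against 28.6 and 24.7 CPM in Ctrl. The summed 6 red blood cell markers were 368 and 348 CPM in DOX, 124 and 25.3 CPM in DPD, 51.0 and 87.7 CPM in RP, 37.2 and 55.4 CPM in R+X and 21.7 and 32.6 CPM in R+D, against 223.3 and 260.4 CPM in Ctrl. The summed 10 macrophage markers were 1052 to 1893 CPM over the 12 libraries, with 1893 and 1595 CPM in RP against 1479 and 1644 CPM in Ctrl. The summed 7 T cell markers were 11.1 and 10.7 CPM in DOX, 18.0 and 22.2 CPM in DPD, 35.4 and 29.9 CPM in RP, 16.3 and 8.53 CPM in R+X and 18.8 and 36.3 CPM in R+D, against 18.6 and 13.6 CPM in Ctrl. In RP against Ctrl, 6 of 6 endothelial markers were higher, 5 of them at an unadjusted p under 0.05, as were 12% of all genes. The endothelial sums were 134 and 99.2 CPM in RP against 76.6 and 57.8 CPM in Ctrl. All 5 tested neutrophil markers were higher in RP, 2 of them at that p, with sums over the 6 markers of 14.1 and 24.3 CPM in RP against 8.03 and 4.22 CPM in Ctrl. Of 6 fibroblast markers 4 were higher in RP, 3 of them at that p, with sums of 6732 and 4610.1 CPM in RP against 5585 and 4458 CPM in Ctrl. Among skin keratinocyte markers, RP replicate 2 stood apart with 49.0 CPM of Krt1, 42.4 CPM of Krt5 and 34.2 CPM of Krt10. The other 11 libraries held at most 14.9, 11.01 and 21.4 CPM of these. Krt15 and Lor were also highest in RP replicate 2. Krt14 was not, with 340 CPM there and a range of 259 to 408 CPM. Dsg1a and Sfn were highest in R+D replicate 2. The part of these tissues in the results below was not tested. In bulk tumour, fewer cells of a type and less RNA per cell cannot be told apart.

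Differences of the members between treatments were tested with edgeR's quasi-likelihood test over all 19525 genes with Benjamini-Hochberg adjusted p-values. No member passed at 0.05 in any of 14 comparisons. Few genes of any kind did: 3 genes (0.0154%) were called in RP against Ctrl, 3 (0.0154%) for the conjugate averaged over the drug settings, and 0 (0%) in each of the other 12. limma-voom also called 0 members in each comparison, whereas DESeq2 called 6 members in RP against Ctrl (6.2% of all genes), 2 in R+D against Ctrl (1.19%) and 4 for the conjugate averaged (4.87%). The differences below are therefore given as levels and as log2 fold changes ± standard error, with 95% intervals where stated.

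**Figure D1:**
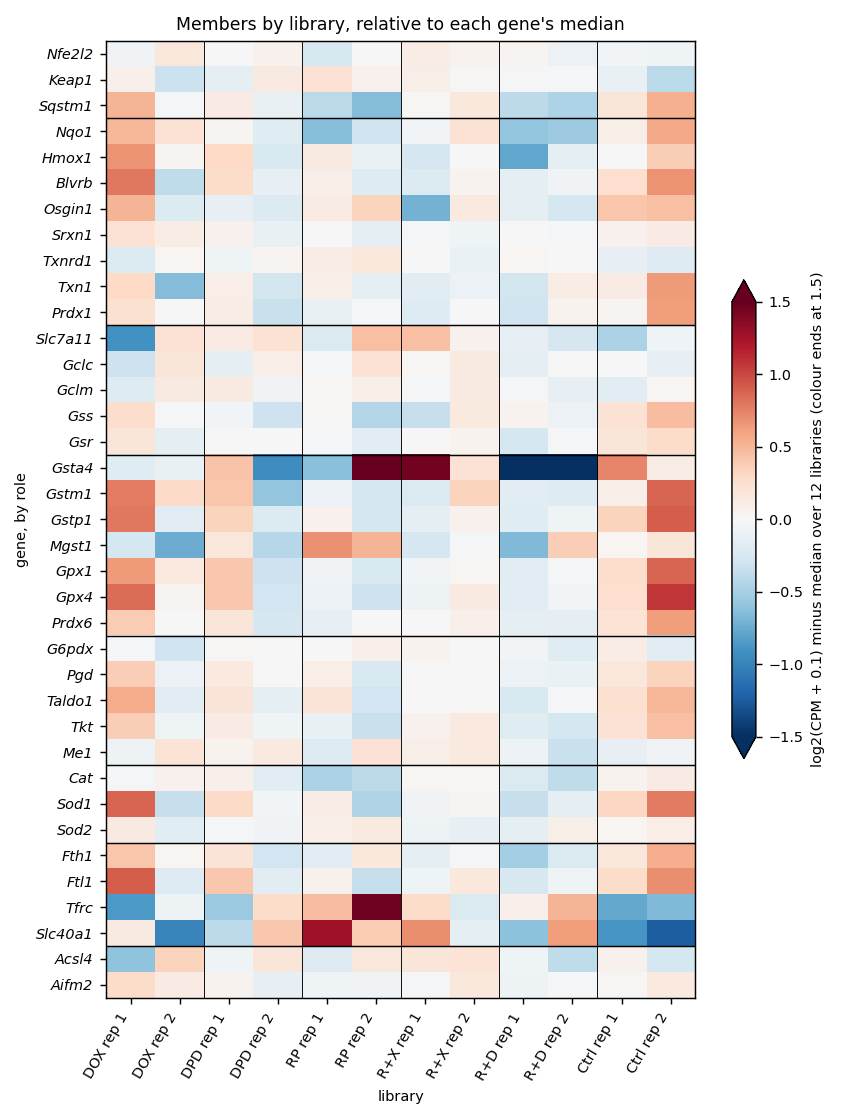
Each row is a member, each column a library, and colour shows log2(CPM + 0.1) minus the gene's median over the 12 libraries, ending at 1.5 on either side. Horizontal lines part the roles and vertical lines the groups. Tfrc is reddest in RP replicate 2 and Slc40a1 in RP replicate 1, while Sqstm1 and Nqo1 are blue in all 4 libraries of RP and R+D.

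Against PBS, most members had lower levels in each group that received the conjugate. In RP, 13 members were higher and 24 lower than in Ctrl, with a median log2 fold change of -0.31, against a median of 0.06 over all genes. At an unadjusted p under 0.05, 2 members were higher and 9 lower, where 12% and 9.38% of all genes were. The libraries did not overlap for 5 members that were higher (32.3% of all genes) and 22 that were lower (27.1% of all genes). In R+D, 6 members were higher and 31 lower than in Ctrl, with a median of -0.38 against 0.04 over all genes. There 1 member was higher and 13 lower at an unadjusted p under 0.05 (8.69% and 6.66% of all genes), and 4 and 23 did not overlap with Ctrl (30.8% and 27.4%). In R+X, 12 were higher and 25 lower, with a median of -0.24 against 0.01 over all genes. There 1 and 1 had an unadjusted p under 0.05 (3.53% and 2.47%), and 9 and 21 did not overlap (28.5% and 27.5%).

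Where a drug was given alone, more members were also lower than higher against PBS, by a smaller margin in DOX. In DOX, 15 members were higher and 22 lower than in Ctrl, with a median log2 fold change of -0.09. Over all genes the median was 0.01, and 51.4% were higher. There 0 members were higher and 0 lower at an unadjusted p under 0.05 (0.86% and 1.22% of all genes), and 0 and 3 did not overlap with Ctrl (8.29% and 9.43%). The 3 were Mgst1, a membrane-bound glutathione transferase, Gsr, which regenerates glutathione, and Gsta4. Mgst1 had 7.19 and 5.10 CPM in DOX against 8.79 and 9.80 CPM in Ctrl (log2 fold change -0.60 ± 0.34, edgeR adjusted p 1), a value that was -0.37 without DOX replicate 2. Gsr had 154.996 and 123.8 CPM in DOX against 155.18 and 164.8 CPM in Ctrl (log2 fold change -0.20 ± 0.15), and its value was -0.04 without DOX replicate 2. In DPD, 11 members were higher and 26 lower than in Ctrl, with a median of -0.23. Over all genes the median was 0.01, and 51.3% were higher. There 0 and 1 had an unadjusted p under 0.05 (2.61% and 1.4%), and 6 and 14 did not overlap (20.4% and 17.6%). The member was Prdx6, a peroxidase of oxidised phospholipids, with 146 and 108 CPM in DPD against 149 and 198 CPM in Ctrl (log2 fold change -0.45 ± 0.20, adjusted p 0.725). Its fold change was -0.23 without Ctrl replicate 2.

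**Figure D2:**
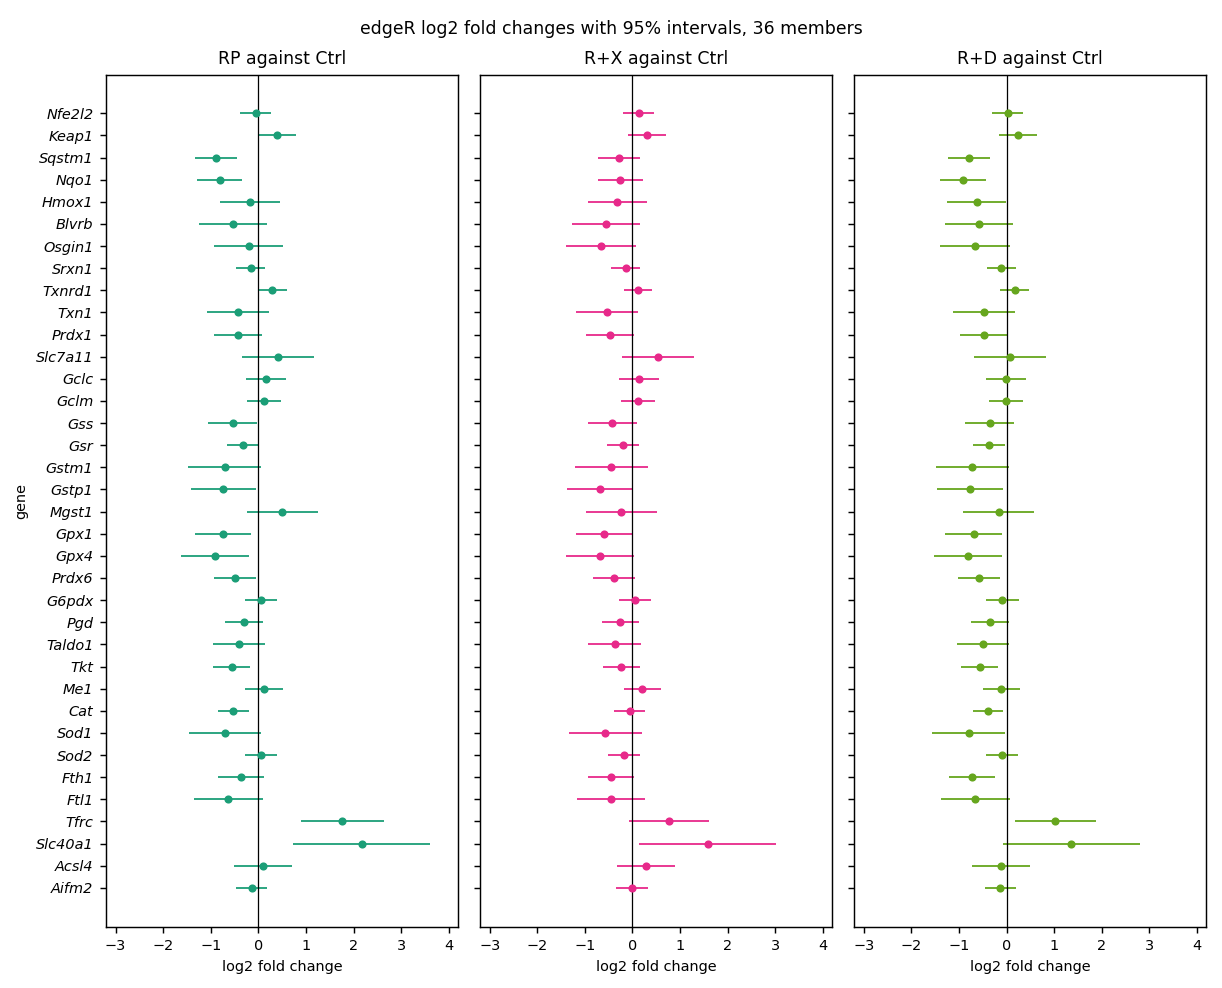
Points are edgeR log2 fold changes of 36 members against Ctrl for RP, R+X and R+D, with bars for 95% intervals from the fit of 2 libraries a group. Intervals of Tfrc and Slc40a1 lie above 0 in RP, those of Sqstm1 and Nqo1 below 0 in RP and R+D, and most others cross 0. Gsta4, with 0 and 2 counts in R+D, is not drawn.

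Among the regulators, the message of NRF2 itself stayed within a narrow range and the autophagy receptor Sqstm1 was low in RP and R+D. Nfe2l2 had 56.4 and 65.6 CPM in DOX, 58.2 and 60.95 in DPD, 49.6 and 58.7 in RP, 63.3 and 60.7 in R+X and 60.02 and 55.2 in R+D, against 57.01 and 55.9 CPM in Ctrl. The interval of its log2 fold change in RP against Ctrl was -0.39 to 0.27, and Nfe2l2 is regulated mainly through its protein, which RNA-seq does not measure. Keap1, the adaptor that holds NRF2 down, had 82.9 and 62.7 CPM in DOX, 71.7 and 86.6 in DPD, 91.4 and 82.2 in RP, 83.5 and 79.3 in R+X and 77.6 and 77.8 in R+D, against 72.6 and 59.4 CPM in Ctrl. All libraries of RP, R+X and R+D lay above both of Ctrl for Keap1, but the fold change was small (RP against Ctrl 0.40 ± 0.18, edgeR adjusted p 0.234).

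Sqstm1 encodes p62, which binds KEAP1 and is itself a target of NRF2. It had 1046 and 729 CPM in DOX, 798 and 679.6 in DPD, 554 and 469 in RP, 742 and 820.5 in R+X and 562 and 535 in R+D, against 834 and 1064 CPM in Ctrl. The libraries of RP and R+D were the lowest 4 of the 12. Among the members, this order was shared only by Nqo1, Tkt and Cat, and no member had these libraries as the highest 4. RP and R+D together were not compared with the other groups in any test. The share of all genes with this order was not counted, so whether members had it more often was not tested. The log2 fold change was -0.89 ± 0.20 in RP (edgeR adjusted p 0.127), -0.79 ± 0.20 in R+D (adjusted p 0.314) and -0.28 ± 0.20 in R+X (adjusted p 0.588). DESeq2 called the first 2 of these, with adjusted p 0.00356 and 0.0318.

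Nqo1, the quinone reductase often read as the standard NRF2 target, was, like Sqstm1, lowest in RP and R+D. It had 21.3 and 17.5 CPM in DOX, 15.5 and 13.3 in DPD, 9.62 and 12.2 in RP, 14.7 and 17.5 in R+X and 9.99 and 10.3 in R+D, against 16.1 and 22.4 CPM in Ctrl. RP and R+D again held the lowest 4 libraries, DOX and R+X overlapped with Ctrl, and both DPD libraries lay below both of Ctrl. The log2 fold change was -0.82 ± 0.22 in RP (edgeR adjusted p 0.139) and -0.92 ± 0.22 in R+D (adjusted p 0.314), and leaving out single libraries moved these to between -1.03 and -0.56 and between -1.14 and -0.66. DESeq2 called both, with adjusted p 0.0164 and 0.018.

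**Figure D3:**
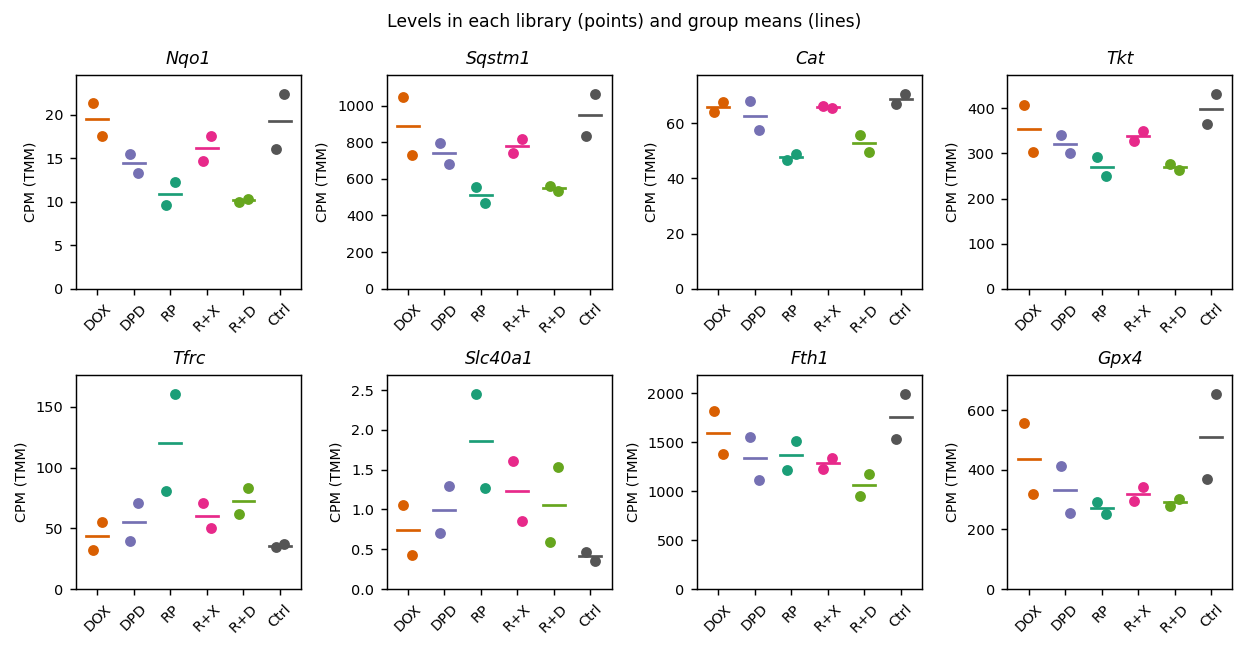
Points are CPM in each library and lines are means of 2 libraries, for 8 members, with groups along the axis. Nqo1, Sqstm1, Cat and Tkt are lowest in RP and R+D. Tfrc is highest in RP replicate 2 at 160.4 CPM and lies below 37 CPM in both Ctrl libraries.

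Other quinone, haem and thioredoxin genes differed less or in other patterns. Hmox1, haem oxygenase, which releases iron from haem, had 93.97 and 60.8 CPM in DOX, 72.4 and 50.2 in DPD, 64.9 and 54.8 in RP, 49.3 and 58.9 in R+X and 34.4 and 53.2 in R+D, against 58.9 and 76.4 CPM in Ctrl. Both libraries of R+D lay below both of Ctrl (log2 fold change -0.63 ± 0.28, edgeR adjusted p 0.325), while RP and R+X overlapped with it. Srxn1, which repairs oxidised peroxiredoxins, varied little, with 65.5 and 60.6 CPM in DOX, 58.8 and 51.9 in DPD, 56.2 and 51.3 in RP, 55.1 and 53.9 in R+X and 56.1 and 55.1 in R+D, against 58.9 and 61.3 CPM in Ctrl. Txnrd1, thioredoxin reductase, ran the other way from Nqo1: its group means were 209 ± 4.54 CPM in RP and 193 ± 3.59 CPM in R+D, against 171 ± 5.53 CPM in Ctrl (SD, n = 2 each). Osgin1, Blvrb, Txn1 and Prdx1 had lower means than Ctrl in all 5 treated groups, with ranges over the 12 libraries of 1.90 to 4.57 CPM, 40.0 to 90.6 CPM, 251 to 612 CPM and 381 to 745 CPM. Txn1 has processed copies elsewhere in the genome, so its counts are uncertain.

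The genes for cystine uptake and the first step of glutathione synthesis overlapped with Ctrl in RP and R+D, whereas Gss and Gsr lay lower there. Both R+X libraries lay above both of Ctrl for Slc7a11 and Gclc, as did both DPD libraries for Slc7a11. Such upward separation held for 28.5% of all genes in R+X and 20.4% in DPD. Slc7a11, the cystine transporter whose block starts ferroptosis, had 10.1 and 22.05 CPM in DOX, 20.6 and 21.9 in DPD, 16.2 and 25.8 in RP, 25.9 and 19.8 in R+X and 17.3 and 15.9 in R+D, against 13.6 and 18.04 CPM in Ctrl. The DOX libraries were the lowest and among the highest of all, so this group alone spanned most of the range. Gclc, the catalytic subunit of the enzyme that starts glutathione synthesis, had 26.1 and 36.8 CPM in DOX, 29.4 and 34.7 in DPD, 31.8 and 37.7 in RP, 32.97 and 35.6 in R+X and 29.3 and 32.6 in R+D, against 32.3 and 29.7 CPM in Ctrl. Gclm, its regulatory subunit, had 40.95 and 51.4 CPM in DOX, 51.2 and 45.2 in DPD, 47.4 and 49.7 in RP, 46.1 and 51.4 in R+X and 45.8 and 42.8 in R+D, against 41.7 and 47.8 CPM in Ctrl. In RP against Ctrl the intervals of the log2 fold change were -0.34 to 1.17 for Slc7a11, -0.26 to 0.59 for Gclc and -0.24 to 0.48 for Gclm. Gss, which completes glutathione, had 18.9 and 15.4 CPM in DOX, 15.2 and 12.6 in DPD, 15.8 and 11.5 in RP, 12.2 and 17.3 in R+X and 16.3 and 14.7 in R+D, against 18.1 and 21.5 CPM in Ctrl. Its log2 fold change in DPD against Ctrl was -0.51 ± 0.23 (edgeR adjusted p 0.725). Gsr had 137 and 137 CPM in DPD, 134 and 122 in RP, 138 and 142 in R+X and 114 and 135 in R+D, all below the Ctrl libraries given above.

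The enzymes that use glutathione had the lowest median of the 8 roles in each of the 5 treated groups. Over the 7 of them the median log2 fold change against Ctrl was -0.23 in DOX, -0.54 in DPD, -0.71 in RP, -0.45 in R+X and -0.72 in R+D, and all 7 were lower in DPD and in R+D. Gpx4, which reduces lipid peroxides in membranes and is the central guard against ferroptosis, had 555 and 319.6 CPM in DOX, 412 and 255 in DPD, 293 and 251 in RP, 295 and 342 in R+X and 279 and 302 in R+D, against 369 and 653 CPM in Ctrl. All 6 libraries that received the conjugate lay below both of Ctrl, yet the Ctrl libraries themselves differed 1.77-fold. The log2 fold change was -0.91 ± 0.32 in RP (edgeR adjusted p 0.18), -0.68 ± 0.32 in R+X (0.575) and -0.81 ± 0.32 in R+D (0.314). Gpx1, the abundant peroxidase of soluble peroxides, had 517 and 368 CPM in DOX, 441 and 267 in DPD, 319 and 284 in RP, 324 and 339 in R+X and 298 and 325 in R+D, against 399 and 608 CPM in Ctrl. Gstp1, a glutathione transferase with near-identical copies in the mouse and therefore uncertain, had 129.8 and 66.6 CPM in DOX, 94.2 and 64.7 in DPD, 78.4 and 62.3 in RP, 68.2 and 77.8 in R+X and 66.04 and 71.7 in R+D, against 94.4 and 139.9 CPM in Ctrl. In R+X against Ctrl the log2 fold change was -0.60 ± 0.27 for Gpx1 and -0.68 ± 0.31 for Gstp1 (edgeR adjusted p 0.575 for both), and without Ctrl replicate 2 these were -0.27 and -0.37.

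Mgst1 departed from that direction in RP, and Gsta4 was too scarce and too variable to place. Mgst1 had 9.76 and 6.39 CPM in DPD, 13.97 and 12.3 in RP, 7.26 and 8.49 in R+X and 5.42 and 11.2 in R+D, against 8.79 and 9.80 CPM in Ctrl. Both RP libraries were the highest of all, with a log2 fold change of 0.50 ± 0.34 (edgeR adjusted p 0.382). Gsta4, which detoxifies the lipid peroxidation product 4-hydroxynonenal, was close to absent, with 12 and 14 counts in DOX, 25 and 6 in DPD, 9 and 68 in RP, 50 and 20 in R+X and 0 and 2 in R+D, against 30 and 15 counts in Ctrl. Its log2 fold change was 0.46 ± 0.97 in RP, where 1 library lay below and 1 above both of Ctrl, and 0.59 ± 0.97 in R+X. R+D held 4.06% of the Ctrl level, with a counting interval of 0.477% to 15.6% (95%, counting error only), and 2.79% of the R+X level (0.332% to 10.5%). This interval does not cover the spread between libraries, which reached 6.63-fold in RP. In edgeR the adjusted p was 0.314 for R+D against Ctrl and 0.82 for R+D against R+X. Gsta4 belongs to a family of similar transferases, so its few counts are uncertain. Gstm1 and Prdx6 ranged over 27.4 to 75.7 CPM and 108 to 198 CPM, with Ctrl replicate 2 the highest library for both.

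Among the genes of NADPH supply, Tkt, Pgd and Taldo1 had their lowest group means in RP and R+D. Tkt, transketolase of the pentose phosphate pathway, is described although it falls outside the rule for named genes and was chosen after its values were seen. It had 408 and 302 CPM in DOX, 342 and 301 in DPD, 292 and 249.4 in RP, 328 and 349 in R+X and 277 and 263 in R+D, against 366 and 432 CPM in Ctrl. G6pdx and Me1, which make NADPH directly, ranged only over 74.3 to 98.3 CPM and 34.7 to 50.8 CPM. Pgd, which makes NADPH in the pentose phosphate pathway, averaged 122 ± 19.5 CPM in RP and 119 ± 1.03 CPM in R+D, against 151 ± 12.2 CPM in Ctrl (SD, n = 2 each). Taldo1, transaldolase of the same pathway, averaged 144 ± 34.03 CPM in RP and 135 ± 14.1 CPM in R+D, against 190.0 ± 24.4 CPM in Ctrl. Over the 12 libraries they ranged over 108 to 164 CPM and 119.5 to 215 CPM, with DOX replicate 1 the highest library for both. Cat, catalase, had 64.02 and 67.6 CPM in DOX, 68.1 and 57.5 in DPD, 46.7 and 48.9 in RP, 66.3 and 65.5 in R+X and 55.9 and 49.6 in R+D, against 67.1 and 70.6 CPM in Ctrl. Its libraries agreed closely within most groups, and RP and R+D held the lowest 4. The log2 fold change of Cat was -0.53 ± 0.14 in RP (edgeR adjusted p 0.146) and -0.38 ± 0.14 in R+D (0.314). Sod1, the cytosolic superoxide dismutase, ranged over 86.2 to 216 CPM, whereas the mitochondrial Sod2 ranged over 56.0 to 69.6 CPM.

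Iron handling held the only members with higher levels at an unadjusted p under 0.05 in RP. In that group the import receptor lay above Ctrl and the storage subunits below. Tfrc, which takes up transferrin-bound iron, had 32.04 and 55.2 CPM in DOX, 39.6 and 70.7 in DPD, 80.6 and 160.4 in RP, 70.7 and 50.2 in R+X and 61.6 and 83.2 in R+D, against 34.2 and 36.8 CPM in Ctrl. Every library of DPD, RP, R+X and R+D lay above both of Ctrl, and RP replicate 2 stood apart at 160.4 CPM. The log2 fold change in RP was 1.76 ± 0.39 (edgeR adjusted p 0.127), and without RP replicate 2 it was 1.17. It passed in a fit of RP and Ctrl alone (adjusted p 0.0159, where 2.59% of all genes were called) and in DESeq2 (adjusted p 0.000807). In R+D it was 1.03 ± 0.39 (adjusted p 0.314) and in R+X 0.77 ± 0.38 (adjusted p 0.575). RP replicate 2 was also the library with the highest Krt1, Krt5 and Krt10 levels given above, but not the highest Krt14, Dsg1a or Sfn. Red cell precursors and dividing T cells carry much transferrin receptor. In RP against Ctrl, 0 of the 5 tested red cell markers were higher and 5 lower, all 5 at an unadjusted p under 0.05 (9.38% of all genes). Of the 6 tested T cell markers 6 were higher, 4 of them at an unadjusted p under 0.05 (12% of all genes). The part of these cells in the Tfrc level was not tested.

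The ferritin subunits, whose messages carry the stem-loops in the 5′ UTR, were lower on average in every treated group. Fth1 had 1814 and 1384 CPM in DOX, 1556 and 1117 in DPD, 1219.9 and 1514 in RP, 1230.3 and 1337 in R+X and 955 and 1173 in R+D, against 1532 and 1989 CPM in Ctrl. R+D was the lowest group for Fth1 (log2 fold change -0.73 ± 0.22, edgeR adjusted p 0.314). In RP the log2 fold change was -0.36 ± 0.22 for Fth1 (edgeR adjusted p 0.338) and -0.63 ± 0.33 for Ftl1 (adjusted p 0.279). Ftl1, which has many processed copies and is uncertain, had 3883 and 1807 CPM in DOX, 2741 and 1855 in DPD, 2163 and 1625 in RP, 1977 and 2306 in R+X and 1751 and 1978 in R+D, against 2496 and 3367 CPM in Ctrl. Slc40a1 was scarce, with 1.06 and 0.425 CPM in DOX, 0.698 and 1.297 in DPD, 2.45 and 1.27 in RP, 1.61 and 0.861 in R+X and 0.588 and 1.53 in R+D, against 0.471 and 0.348 CPM in Ctrl. Its log2 fold change was 2.17 ± 0.65 in RP (adjusted p 0.155), 1.58 ± 0.65 in R+X (0.575) and 1.27 ± 0.65 in DPD (0.725), the last of which was 0.76 without DPD replicate 2. Ferroportin is strongly expressed by iron-recycling macrophages, and of the 10 macrophage markers 6 were higher and 4 lower in RP than in Ctrl, with a median log2 fold change of 0.28. Of these, 4 were higher and 0 lower at an unadjusted p under 0.05 (12% and 9.38% of all genes). Cd163, a scavenger receptor of macrophages and the marker of the 10 with the largest rise, had 2.62 and 1.62 CPM in RP against 0.569 and 0.371 CPM in Ctrl. The 4 lower on average were C1qa, C1qb, C1qc and Cd68, all more abundant than Cd163. Of these, Cd68 had 56.1 and 46.8 CPM in RP against 65.0 and 67.1 CPM in Ctrl. The part of macrophages in the Slc40a1 level was not tested.

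Neither of the 2 members on the lipid and quinone side of ferroptosis had an unadjusted p under 0.05 in a treated group against Ctrl. Acsl4 had 36.7 and 70.7 CPM in DOX, 53.6 and 63.2 in DPD, 48.9 and 63.02 in RP, 63.3 and 64.4 in R+X and 53.5 and 42.97 in R+D, against 58.3 and 46.4 CPM in Ctrl. Aifm2 (FSP1), which regenerates reduced coenzyme Q in membranes, had 38.3 and 34.5 CPM in DOX, 32.96 and 29.2 in DPD, 30.4 and 30.7 in RP, 31.2 and 35.6 in R+X and 30.1 and 31.4 in R+D, against 32.2 and 35.1 CPM in Ctrl. The intervals of the log2 fold change in RP against Ctrl were -0.52 to 0.71 for Acsl4 and -0.47 to 0.19 for Aifm2.

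The prodrug DPD and its parent DOX were compared at the same mass dose, alone and after the conjugate. Alone, 13 members were higher and 24 lower in DPD than in DOX, with a median log2 fold change of -0.14. There 0 and 0 had an unadjusted p under 0.05 (3.01% and 1.28% of all genes), and 1 and 4 did not overlap (13.4% and 10.4%). Nqo1 averaged 14.4 ± 1.55 CPM in DPD and 19.4 ± 2.68 CPM in DOX (SD, n = 2 each), a log2 difference of -0.43 ± 0.22 with an interval of -0.91 to 0.05 (edgeR adjusted p 0.979). The intervals were -0.49 to 0.12 for Srxn1, -0.56 to 0.10 for Aifm2 and -0.51 to 1.18 for Tfrc, each of which includes no difference and also changes of the sizes at its ends. Without DOX replicate 1 the value of Nqo1 was -0.28. After the conjugate, 8 members were higher and 29 lower in R+D than in R+X, with a median of -0.14. There 0 and 4 had an unadjusted p under 0.05 (3.75% and 1.52%), and 0 and 19 did not overlap (22.5% and 23%). Nqo1 averaged 10.16 ± 0.241 CPM in R+D and 16.1 ± 2.00 CPM in R+X, a log2 difference of -0.66 ± 0.22 (interval -1.14 to -0.19, adjusted p 0.91). Sqstm1 averaged 548 ± 19.1 CPM in R+D and 781 ± 55.8 CPM in R+X, a log2 difference of -0.51 ± 0.20 (interval -0.95 to -0.07, adjusted p 0.91). If the readings of R+X and R+D were exchanged, these directions would change with them.

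Each combination was also set against its parts. In R+X against RP, 23 members were higher and 14 lower, 3 and 1 had an unadjusted p under 0.05 (2.25% and 6.43% of all genes), and 11 and 4 did not overlap (22.7% and 23.7%). Cat was higher in R+X by 0.46 ± 0.14 on the log2 scale (edgeR adjusted p 0.334), Sqstm1 by 0.61 ± 0.20 (0.362) and Nqo1 by 0.56 ± 0.22 (0.466). In R+D against RP, 8 were higher and 29 lower, 0 and 1 had an unadjusted p under 0.05 (0.784% and 1.95%), and 1 and 11 did not overlap (14.2% and 13.6%). Besides Gsta4, Mgst1 differed in R+D by -0.66 ± 0.34 and Fth1 by -0.36 ± 0.22 (adjusted p 1 for both). Without R+D replicate 1 the value of Mgst1 was -0.23, and without RP replicate 2 that of Fth1 was -0.20. In R+X against DOX, 15 were higher and 22 lower, 0 and 0 had an unadjusted p under 0.05 (1.75% and 1.04%), and 3 and 6 did not overlap (15.3% and 13.5%). Hmox1 differed by -0.52 ± 0.28 and Gpx1 by -0.42 ± 0.27 (adjusted p 0.965 for both), which were -0.17 and -0.15 without DOX replicate 1. In R+D against DPD, 8 were higher and 29 lower, 0 and 2 had an unadjusted p under 0.05 (1.52% and 0.789%), and 0 and 12 did not overlap (14.5% and 11.8%). Besides Gsta4, Nqo1 differed by -0.50 ± 0.22 and Sqstm1 by -0.43 ± 0.20 (adjusted p 1 for both). These comparisons share libraries with those against Ctrl.

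Averaged over no drug, DOX and DPD, the 6 conjugate libraries were compared with the 6 without it. Here 10 members were higher and 27 lower, with a median of -0.21 against 0.03 over all genes, 2 and 13 had an unadjusted p under 0.05 (10.9% and 9.47% of all genes), and 0 and 0 did not overlap (0.236% and 0.0768%). Sqstm1 differed by -0.50 ± 0.11 on the log2 scale and Nqo1 by -0.53 ± 0.12 (edgeR adjusted p 0.145 for both), and Tfrc by 0.88 ± 0.22 (adjusted p 0.153). Without DOX replicate 2, 10 members were called, with Tfrc higher and Sqstm1, Tkt, Blvrb, Ftl1, Gpx4, Gstp1, Sod1, Gpx1 and Nqo1 lower, and 3233 of all genes were called in place of 3. Whether the difference between libraries with and without the conjugate changed with a drug was tested as an interaction. The drug's route differed between the combinations and the drugs alone, so neither the average nor the interactions separate conjugate from route. With DOX, 2 members had a positive and 1 a negative interaction at an unadjusted p under 0.05 (0.958% and 2.75% of all genes). These were Cat (0.53 ± 0.20), Sqstm1 (0.71 ± 0.28) and Tfrc (-1.29 ± 0.54), each with adjusted p 0.998. With DPD, 0 were positive and 3 negative (1.01% and 3.45%), namely Tfrc (-1.37 ± 0.54), Slc40a1 (-2.09 ± 0.89) and Gsta4, each with adjusted p 0.84. Without RP replicate 2 the Tfrc interactions were -0.71 with DOX and -0.79 with DPD.

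For the conjugate averaged and against Ctrl, the members' fold changes followed exon length, the combined length of all annotated exons of a gene. Over all genes with a GENCODE exon length (16252 of 19525, 83.2%), Spearman's rho between the conjugate-averaged log2 fold change and length was 0.29, and over the 37 members it was 0.61. These are across genes, which are not independent replicates. The 12 shortest members (up to 2.61 kb, among them Txn1, Ftl1, Gpx1, Gstp1, Nqo1, Gpx4 and Cat) had a median log2 fold change of -0.45, and 11 of them were lower. The 12 longest (4.69 kb and over, among them Tfrc, Slc40a1, Slc7a11, Txnrd1 and Tkt) had a median of 0.02, and 5 were lower. Against Ctrl, rho over the members was 0.46 in DOX, 0.66 in DPD, 0.45 in RP, 0.52 in R+X and 0.66 in R+D, which all share the Ctrl libraries. Between treated groups, rho was 0.48 in R+X against DOX, 0.32 in R+D against DPD and 0.50 in DPD against DOX. It was -0.20 in R+X against RP, -0.18 in R+D against RP and 0.07 in R+D against R+X, so the relation was not general.

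Levels of many members also moved with 22 ribosomal protein genes, a set of short, abundant transcripts, in a relation examined after the data were seen. Their summed level was 45171 and 26489.9 CPM in DOX, 32600.2 and 22684 CPM in DPD, 25437 and 19400.2 CPM in RP, 25323 and 27694 CPM in R+X and 23676 and 24977 CPM in R+D, against 30662 and 46877 CPM in Ctrl. Over the 12 libraries, on a log2 scale, 24 of 36 members correlated with this sum at a p under 0.05, adjusted over 17698 genes, in a two-sided permutation test of Pearson's r, 21 positively and 3 negatively. Of those 17698 genes, all with a count in every library, 46.1% passed, 23.2% positively and 22.9% negatively. By Spearman's rho 24 members and 38.1% of the genes passed. The median r was 0.767 over the members and -0.058 over the genes. The permutations exchanged libraries freely across the 6 groups of 2, so their p-values take no account of the grouping. Swaps within groups were not run for this relation. Without DOX replicate 1 and Ctrl replicate 2, the farthest from the median of the sum, 11 of 36 members and 12.5% of the genes passed. Gpx4 followed the sum most closely (r = 0.99, permutation p 1e-05, the smallest these permutations can give, adjusted 0.000281; rho = 0.97, permutation p 1e-05, adjusted 0.00107), with r = 0.96 without those 2 libraries and 0.98 for deviations from group means. Tfrc ran against it (r = -0.85, permutation p 0.00017, adjusted 0.00118; rho = -0.85, permutation p 0.0008, adjusted 0.00677), with r = -0.91 without them. Txnrd1 also ran against the sum, with r = -0.90 (adjusted permutation p 0.00061) and -0.82 without those 2 libraries (adjusted 0.0422). The remaining negative member was Gclc, with r = -0.72 (adjusted permutation p 0.022) and -0.48 without them (adjusted 0.35). For Sqstm1 r was 0.89 with all libraries (adjusted permutation p 0.000549) and 0.80 without them (adjusted 0.0389). For Nqo1 r was 0.77 (adjusted permutation p 0.00869) and 0.51 without them (adjusted 0.32), and for Fth1 0.76 (adjusted 0.0118) and 0.39 (adjusted 0.475). CPM are shares of a common total, and what sets the ribosomal protein sum was not tested.

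**Figure D4:**
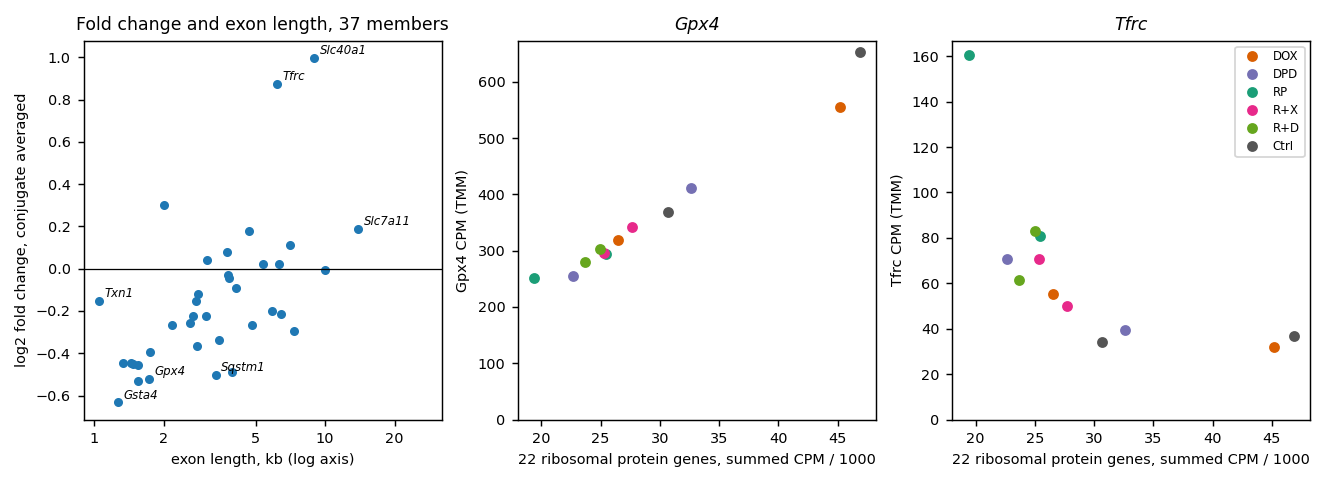
The left panel plots the conjugate-averaged log2 fold change of the 37 members against exon length in kb on a log axis, and the other panels plot Gpx4 and Tfrc CPM of the 12 libraries against the summed CPM of 22 ribosomal protein genes divided by 1000. Of the 12 shortest members, 11 lie below 0 on the left, Gpx4 rises with the sum at r = 0.99, and Tfrc runs against it at r = -0.85.

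Known NRF2 targets did not all move with Nqo1 over the 12 libraries. Of 6 targets compared on a log2 scale, Txnrd1 ran against Nqo1 (r = -0.78, two-sided permutation p 0.00282, adjusted 0.0169; rho = -0.71, permutation p 0.0119, adjusted 0.0717). Hmox1 ran with it (r = 0.68, permutation p 0.0134, adjusted 0.0401; rho = 0.62, permutation p 0.0366, adjusted 0.078), and Srxn1 did not pass (r = 0.63, permutation p 0.0269, adjusted 0.0538; rho = 0.61, permutation p 0.039, adjusted 0.078). Gclm (r = 0.05), Gclc (r = -0.22) and Slc7a11 (r = -0.19) did not pass, with adjusted permutation p 0.882, 0.668 and 0.668. By rho 0 of the 6 passed after adjustment. Without R+D replicate 1 and RP replicate 1, the farthest from the median of Nqo1, r was -0.76 for Txnrd1, 0.76 for Hmox1 and 0.76 for Srxn1 over 10 libraries (adjusted permutation p 0.0226 each). For deviations from the group means, r was -0.63 for Txnrd1 and 0.57 for Hmox1 and none of the 6 passed (adjusted exact permutation p 0.375 for both). With the ribosomal protein sum, r was 0.77 for Nqo1, 0.76 for Hmox1, 0.86 for Srxn1 and -0.90 for Txnrd1. Relations between these genes apart from that sum were not tested.

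A wider list of 114 genes of the same pathways, 110 of them tested, also held no called gene: edgeR called 0 in each of the 14 comparisons. In RP against Ctrl 36 were higher and 74 lower, with a median of -0.36, and 12 and 19 had an unadjusted p under 0.05 (12% and 9.38% of all genes). In R+D against Ctrl 32 were higher and 78 lower, with a median of -0.30, and 5 and 23 had an unadjusted p under 0.05 (8.69% and 6.66%). In DOX 33 were higher and 77 lower, in DPD 36 and 74, and in R+X 32 and 78. All 11 tested genes of the thioredoxin and superoxide list were lower in DOX, DPD, RP and R+D and 10 of 11 in R+X, with medians of -0.19 in DOX, -0.38 in DPD, -0.50 in RP, -0.44 in R+X and -0.53 in R+D. Of 28 tested glutathione enzymes and transporters, 23 were lower in DOX, 22 in DPD, 19 in RP, 26 in R+X and 20 in R+D. Of 26 genes of iron and haem handling, 16 were lower in DOX, 14 in DPD, 17 in RP, 17 in R+X and 18 in R+D. Of 18 other ferroptosis lipid and quinone genes, 13 were lower in DOX, 11 in DPD, 12 in RP, 11 in R+X and 14 in R+D. At an unadjusted p under 0.05, 1 of these 18 was higher and 5 lower in RP, with a median of -0.41, and 1 was higher and 5 lower in R+D, with a median of -0.26.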

How the data were processed

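The deposited values were raw counts, whole numbers per gene in a table of all 12 libraries, per the file headers, and each per-library file equalled its column. The submitters' processing notes name the build GRCm38 and the tools HISAT2 2.1.0, DESeq2 and StringTie 1.3.5. Tool roles, annotation, strand use and filters were not given in the sources used here, so overlapping and antisense genes cannot be told apart. Per the labels' protocols, tumour RNA was extracted with TRIzol before NEBNext Ultra library preparation.

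Counts were fitted in R 4.3.3 with edgeR 4.0.16 (quasi-likelihood, TMM, filterByExpr, 19525 genes tested, biological coefficient of variation 0.257) over 6 groups of 2 libraries, with 6 residual degrees of freedom. Benjamini-Hochberg adjustment ran over all tested genes and the threshold was 0.05. CPM are TMM-scaled, and standard errors come from the same test. Alternatives used DESeq2 1.42.0, limma 3.58.1 voom, RLE scaling, no filter, the compared groups alone and each library left out. The pipeline was tested on simulated data. Correlations used 100000 permutations of the libraries across groups, and those of Nqo1 for deviations from group means all 64 swaps within groups. Those with the ribosomal protein sum were adjusted over the 17698 genes with a count in every library, the 22 ribosomal protein genes left out. Counting intervals (95%) cover counting error only.

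The members and lists were chosen with earlier results of these data known. Fold changes are given for called members or, where fewer than 3 were called, for the 3 of smallest p among those whose groups do not overlap, overlap being allowed for the averaged and interaction comparisons. Levels are given for these and a set panel, and members named beyond this were chosen after their values were seen. Replicate numbers follow the order of listing and pair nothing.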

Additional observations from a re-analysis of the deposited data

How the results depend on the processing

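Of the counts of members called, those of 11 comparisons stayed at 0 under every alternative run. In RP against Ctrl the count was 6 with DESeq2 (Tfrc and Slc40a1 higher, Sqstm1, Cat, Tkt and Nqo1 lower) and 1 in the fit of the compared groups alone (Tfrc). In R+D against Ctrl it was 2 with DESeq2 (Sqstm1 and Nqo1 lower). For the conjugate averaged it was 4 with DESeq2 (Tfrc higher, Sqstm1, Cat and Nqo1 lower), and leaving out single libraries gave 0 to 10. Leaving out single libraries gave 0 to 0 in the other comparisons. The cause was not tested. Summing the suffixed rows of Gstp1 and Pgd with the named rows, chosen after seeing the data, changed no count. Over all genes, RP against Ctrl gave 3 calls, 1211 with DESeq2, 16 with limma-voom, 505 in the fit of its 2 groups, 2 with RLE scaling, 14 without the filter and 0 to 48 without single libraries. The conjugate averaged gave 3 calls, 951 with DESeq2, 13 without the filter and 0 to 3233 without single libraries. DESeq2 called 232 genes in R+D against Ctrl and 305 in R+X against RP, where edgeR called 0. Of the group means of members, 35 moved by more than 1 SD with library totals in place of TMM and 4 with RLE scaling. The number of targets correlated with Nqo1 was 2, was 3 with RLE scaling and 3 without the farthest libraries, and was 0 for deviations from group means. These counts are by Pearson's r. By Spearman's rho they were 0, 0 with RLE scaling and 2 without the farthest libraries. The relation with the ribosomal protein sum was chosen after seeing the data: 24 members passed over all libraries and 11 without the 2 farthest, where r reversed for Gclm (0.0261, against -0.24) and Sod2 (-0.28, against 0.29), neither of which passed in either setting. For deviations from group means it changed sign for Keap1 (0.06), Slc40a1 (0.21) and Mgst1 (0.61), which did not pass over all libraries. No fold change of a named member and no Pearson correlation with Nqo1 reversed. Spearman's rho of Nqo1 with Slc7a11 changed sign, from -0.035 over all libraries to 0.175 for deviations from group means, and passed in neither. No paired analysis was possible because the labels carry no replicate numbers. With 2 libraries a group, the fit has few degrees of freedom, and depth limits only Gsta4, Slc40a1 and Osgin1.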
